A study of Danio rerio with 24 samples.

Results

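The step from 1 to 2 days post amputation (dpa) in the caudal fin of zebrafish larvae was compared, using 6 of the 24 arrays of the study: 3 of larval fin at 1 dpa and 3 of larval fin at 2 dpa, chosen by their titles. The study measured expression with Affymetrix zebrafish arrays in larval and adult fins before and after amputation, in 8 groups of 3 arrays, to set larval against adult regrowth, as its title states. All larval groups were of the AB strain. The unamputated larval fins were taken at 2 days post fertilization, the age at which the other larvae were amputated. Each larval replicate was a pool of 150 fins and used 100 ng of RNA with a kit that amplifies in 2 cycles. Larvae of the 2 dpa and 3 dpa groups had been placed in the vehicle DMSO for 1 h after amputation, while no vehicle was stated for the 1 dpa group. Larvae at 2 dpa were also a day older than those at 1 dpa, and no unamputated larvae of either age were measured. Titles of the 2 dpa and 3 dpa larval arrays end in "adult and larval fin study". Those of the 1 dpa and unamputated larval arrays do not, and what this marks is not known here. Age, day after amputation, vehicle and any difference between these sets of arrays therefore cannot be told apart in this step. The source names of the 1 dpa arrays all carry the number 1, and the titles were followed.

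A larval caudal fin is a fold of epidermis with little mesenchyme inside, next to the tip of the notochord and the tail muscle. After amputation it is closed by a wound epidermis, below which proliferating cells gather as a blastema, and Fgf, Wnt, Bmp and retinoic acid signals are known to control its regrowth. Homeodomain factors of the msx, dlx and hox families mark the fold, and lysyl oxidases and actinodins build its matrix.

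Each deposited value is a ratio of a probe set to a reference of its own, so levels below are log2 ratios. They can be compared between arrays but not between genes, and the presence of a cell type cannot be checked from them. A change was called where limma gave an adjusted p (Benjamini-Hochberg) under 0.05 and the size was 2-fold or more, a log2 change of 1. "Rose" and "fell" refer to called genes only, errors are standard errors (SE) of the model unless given as SD, and p-values measure the spread between pools of fins. In such bulk samples fewer cells of a type and less RNA per cell cannot be told apart. Genes are also counted in 38 lists, which were chosen with earlier results of these data known. A list's share beside that of all genes is therefore a description and no independent support. Some genes are in more than 1 list, such as fgf24 in the Fgf and median fin fold lists, so list counts are not separate evidence.

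The arrays of the 2 days were far apart. Across probe sets, the correlation was between 0.793 and 0.902 among the 1 dpa arrays and between 0.879 and 0.910 among the 2 dpa arrays, but only 0.214 to 0.369 between a 1 dpa and a 2 dpa array. The 1 dpa arrays were closer to unamputated fin, at 0.676 to 0.733. Arrays at 2 dpa correlated with those at 3 dpa at 0.579 to 0.849 and with unamputated fin at 0.174 to 0.291. Array titles divide the larval groups in the same way, and the part of that was not tested. Replicate 1 of the 1 dpa group stood towards 2 dpa: it correlated with the 2 dpa arrays at 0.317 to 0.369, against 0.214 to 0.290 for replicates 2 and 3. It was the highest of the 3 arrays at 1 dpa for 353 of the 558 probe sets called higher at 2 dpa, and the lowest for 497 of the 827 called lower. Replicates 2 and 3 were the highest for 100 and 105 and the lowest for 85 and 245. The same counts over all probe sets were not made. Without replicate 1, 692 were called higher and 936 lower. Array medians lay between -0.06 and -0.02 on day 1 and between -0.04 and -0.01 on day 2.

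Of 15502 probe sets tested, 1385 were called (8.93%), of which 558 were higher (3.6%) and 827 lower (5.33%) at 2 dpa. Falls were also the larger changes: 283 probe sets fell by 4-fold or more and 76 by 16-fold or more, against 44 and 1 that rose as far. Read by gene, 367 of 8793 genes rose (4.17%) and 526 fell (5.98%), with a median change of 0.04 over all genes. The 1 dpa and 2 dpa arrays did not overlap for 44.1% of all genes, with 25.6% higher and 18.6% lower at 2 dpa. With no minimum fold change, too, more probe sets were higher (1961) than lower (1668), the reverse of the split of the calls. Among the called probe sets 1378 of 1385 had no overlap of arrays. The 12 largest rises and 12 largest falls named below were picked from genes without overlap. Lack of overlap, where given below, thus describes a called gene and is no further support for its call. No gene symbol, or more than 1, was available for 362 of the called probe sets, and these are counted but not named.

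**Figure D1:**
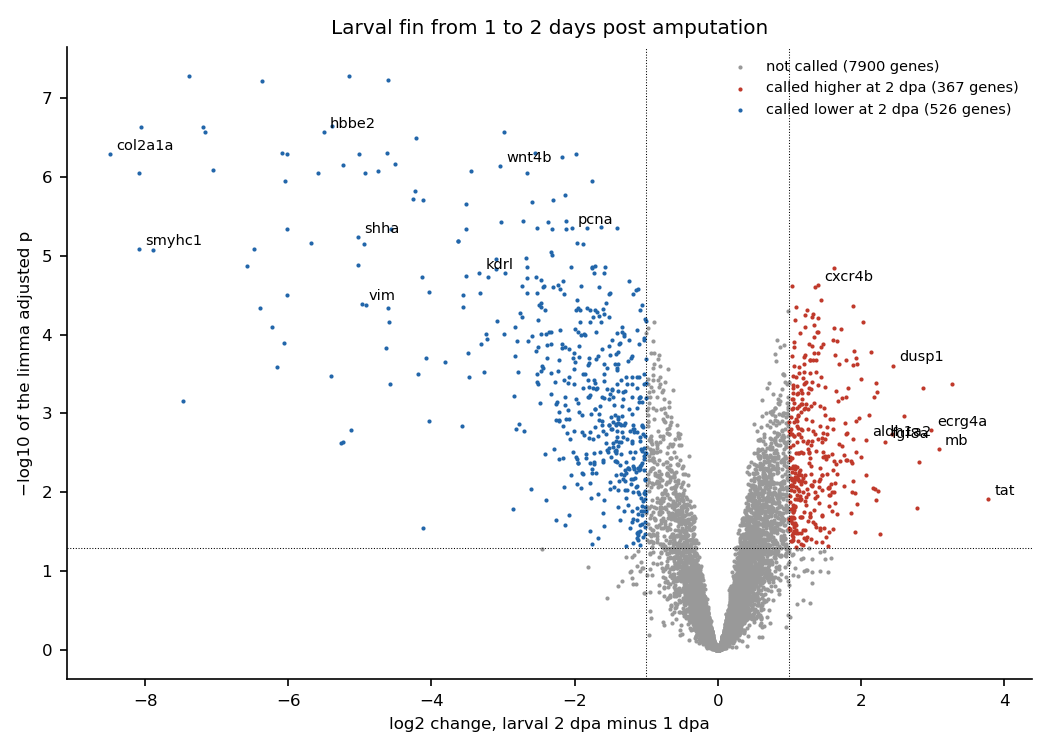
Each point is a gene, with its log2 change from 1 to 2 dpa on the x axis and −log10 of its limma adjusted p on the y axis; dotted lines mark the thresholds of the call. The 526 called falls reach to -8.48 (col2a1a), while the 367 called rises reach 3.78 (tat).

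Genes of muscle, blood, nervous tissue and notochord were among those that fell. Of 43 measured skeletal muscle genes 32 fell and 0 rose, with a median change of -3.63. Of 18 erythrocyte genes 9 fell and 0 rose (median -1.49), and of 24 genes of neurons and glia 12 fell and 0 rose (median -1.0). In the list of notochord and cartilage genes 8 of 19 fell and 2 rose (median -0.15). Of 7 genes of the vascular endothelium 2 fell and 5 were not called, with a median near no change (-0.04). The shares that fell in these lists lie above the 5.98% of all genes. Of the 526 genes that fell, 63 belong to these 5 lists, 55 to the cell cycle lists and 408 to none of them.

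col2a1a, a chain of the type II collagen of notochord and cartilage, had log2 ratios of 8.76, 9.29 and 9.05 at 1 dpa and of -0.20, 0.00 and 1.85 at 2 dpa. All 3 arrays at 2 dpa were lower than any at 1 dpa, with replicate 3 above the others. It fell by 8.48 on the log2 scale (SE 0.43, adjusted p = 5.2e-07), a 358-fold change, from a level that had been 8.04 to 8.5 in unamputated fin. The genes of type IX collagen, which is built into the same fibrils, moved alongside it: col9a2 fell by 8.09 (SE 0.46), col9a1b fell by 8.06 (SE 0.36) and col9a3 fell by 7.20 (SE 0.32).

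smyhc1, the heavy chain of slow muscle myosin, stood at 8.91, 9.76 and 8.90 at 1 dpa and at 0.41, 0.12 and 2.77 at 2 dpa. The groups did not overlap, and replicate 3 was again the highest at 2 dpa. It fell by 8.09 (SE 0.61, adjusted p = 8.2e-06). The calcium pump of the sarcoplasmic reticulum, atp2a1, fell by 7.90 (SE 0.60), the muscle creatine kinase ckmb fell by 6.58 (SE 0.53), and among myosin light chains myl13 fell by 7.16 (SE 0.33) and myl10 fell by 7.04 (SE 0.39). The calcium buffer pvalb2 fell by 7.47 (SE 1.09) and was the least even of them, with 5.83, 8.24 and 6.43 at 1 dpa. The median of the muscle list was between 2.95 and 4.1 in the 1 dpa arrays, between -0.14 and 0.02 in the 2 dpa arrays, and between -0.12 and -0.05 in the 3 dpa arrays.

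The embryonic globin gene hbbe2 had 5.33, 5.59 and 5.44 at 1 dpa and 0.00, 0.00 and -0.15 at 2 dpa. Its groups did not overlap, and it fell by 5.51 (SE 0.26, adjusted p = 2.7e-07). Its 1 dpa level was itself above that of unamputated fin, by 3.14 (SE 0.26), in a comparison that shares the 1 dpa arrays with this one. As background for these further comparisons, 4.42% of genes were called between unamputated fin and 1 dpa (2.63% higher, 1.8% lower), 7.2% were higher and 6.8% lower at 2 dpa than in unamputated fin, and 0.409% were called between 2 and 3 dpa (0.284% and 0.125%). hbae3, another embryonic globin, fell by 6.06 (SE 0.68), and the anion exchanger of the red cell, slc4a1a, fell by 4.59 (SE 0.47). Array probes of near-identical genes, such as globins, parvalbumins and keratins, can bind each other's RNA, so single members of these families are uncertain.

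kdrl, a receptor for Vegf on blood vessels, was at -0.33, 0.07 and -0.27 at 1 dpa and at -3.79, -3.99 and -2.76 at 2 dpa. The groups did not overlap, and it fell by 3.34 (SE 0.28, adjusted p = 1.7e-05). plvapb, which forms diaphragms in vessel walls, fell by 4.50 (SE 0.24). Of the nervous system genes, sncb (beta-synuclein) fell by 3.52 (SE 0.30), the radial glia gene fabp7a by 2.98 (SE 0.14) and the glial filament gene gfap by 2.59 (SE 0.16). These 3 had been higher at 1 dpa than in unamputated fin, by 1.45, 2.14 and 1.1.

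**Figure D2:**
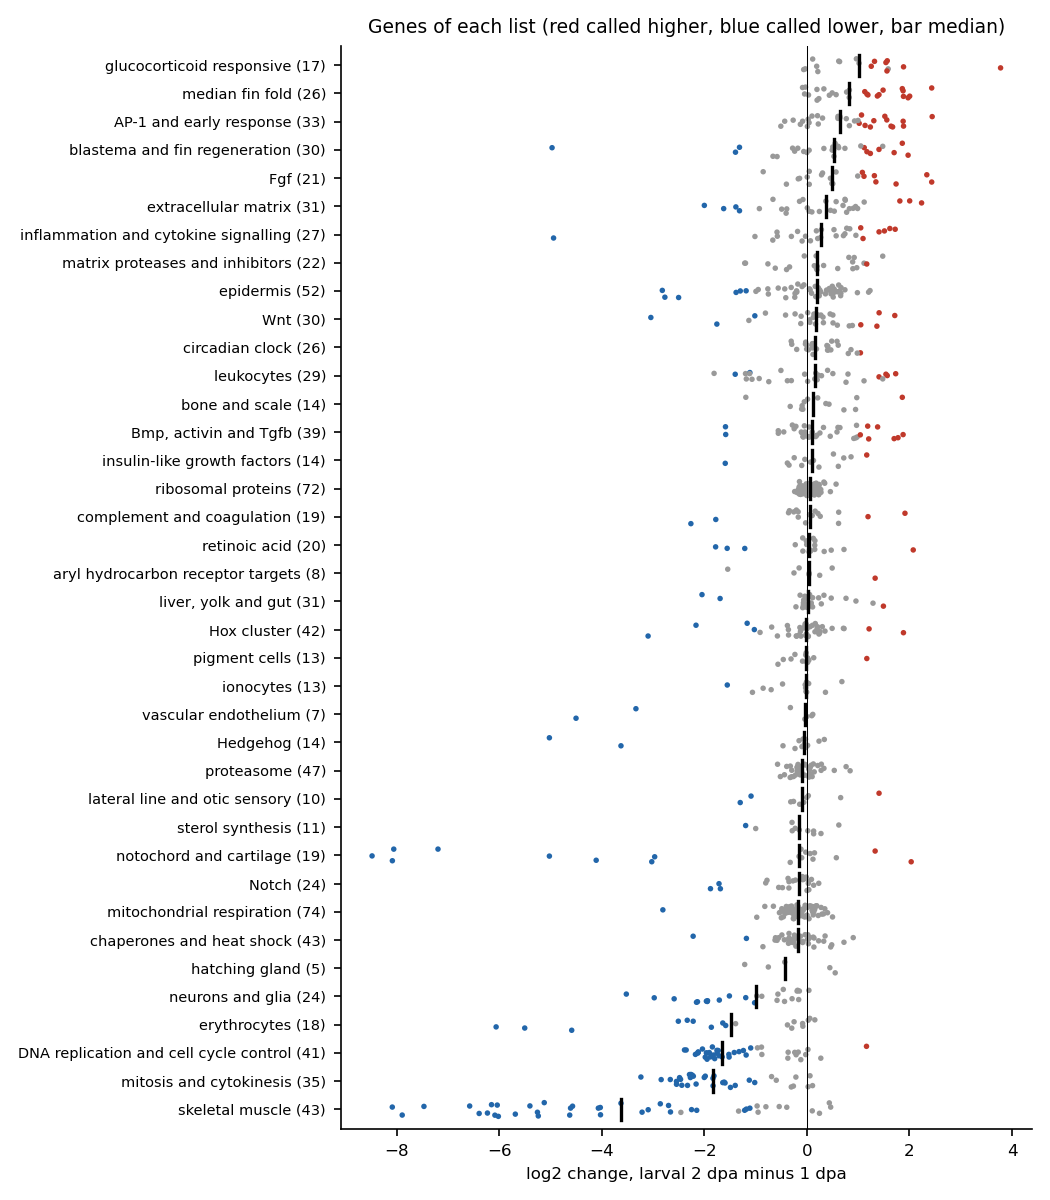
Each point is a gene of 1 of 38 lists, with the number measured in brackets, placed by its log2 change from 1 to 2 dpa; red points were called higher, blue lower, grey were not called, and the black bar is the list's median. Skeletal muscle (median -3.63) and the cell cycle lists (-1.83 and -1.65) lie lowest, the glucocorticoid (1.02) and median fin fold lists (0.83) highest.

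Most cell cycle genes measured fell, with list medians below those of all the tissue lists above except muscle. In the list of DNA replication and cell cycle control 28 of 41 genes fell and 1 rose (median -1.65). In the list of mitosis and cytokinesis 27 of 35 fell and 0 rose (median -1.83). Of all genes 5.98% fell and 4.17% rose. The list of replication genes had medians of 0.29 to 0.50 in the 1 dpa arrays, -1.20 to -1.02 at 2 dpa and -0.28 to 0.05 at 3 dpa. For the mitosis list they were 0.28 to 0.66, -1.22 to -1.13 and -1.19 to -0.31, so its 3 dpa arrays reached down to the 2 dpa range. The muscle genes fell in the same arrays, and their part in this result was not tested.

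pcna, the sliding clamp of DNA polymerases, stood at 0.62, 0.52 and 0.73 at 1 dpa and at -1.40, -1.45 and -1.39 at 2 dpa. The groups were far apart for their spread, and pcna fell by 2.04 (SE 0.14, adjusted p = 4.5e-06). At 3 dpa it was at -0.23, 0.39 and 0.01, a rise of 1.47 (SE 0.14, adjusted p = 0.0013) over 2 dpa, whose arrays are shared with this step. The replicative polymerase gene pola1 fell by 2.18 (SE 0.11) and was 1.48 (SE 0.11) higher at 3 than at 2 dpa. The helicase subunit mcm4 fell by 1.98 (SE 0.10) and was 1.54 (SE 0.10) higher at 3 dpa. The licensing factor cdt1 fell by 2.39 (SE 0.27) and dut, which removes dUTP, by 2.36 (SE 0.25).

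ccnb1, the cyclin that drives entry into mitosis, was at 0.36, 1.18 and 0.73 at 1 dpa and at -1.48, -1.47 and -1.43 at 2 dpa. The arrays did not overlap, and it fell by 2.22 (SE 0.35, adjusted p = 0.0012). Its partner kinase cdk1 fell by 1.96 (SE 0.39). At 3 dpa both were spread widely, ccnb1 from -2.05 to -0.25 and cdk1 from -1.98 to 0.05, and their change from 2 to 3 dpa was not called. The largest falls of the mitosis list were in smc2, a condensin subunit (-3.24, SE 0.35), prc1a, which bundles spindle microtubules (-2.84, SE 0.41), and incenp, of the chromosomal passenger complex (-2.67, SE 0.24). A different probe set of smc2 changed by -0.26, 1 of incenp by 0.08 and 2 of the proliferation marker mki67 by -0.68 and -0.30, all not called. The probe set read for mki67 fell by 1.12 (SE 0.12). The only gene of the replication list that rose was the inhibitor of cyclin-dependent kinases cdkn1bb, by 1.16 (SE 0.22), and its other probe set changed by 0.50 and was not called.

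**Figure D3:**
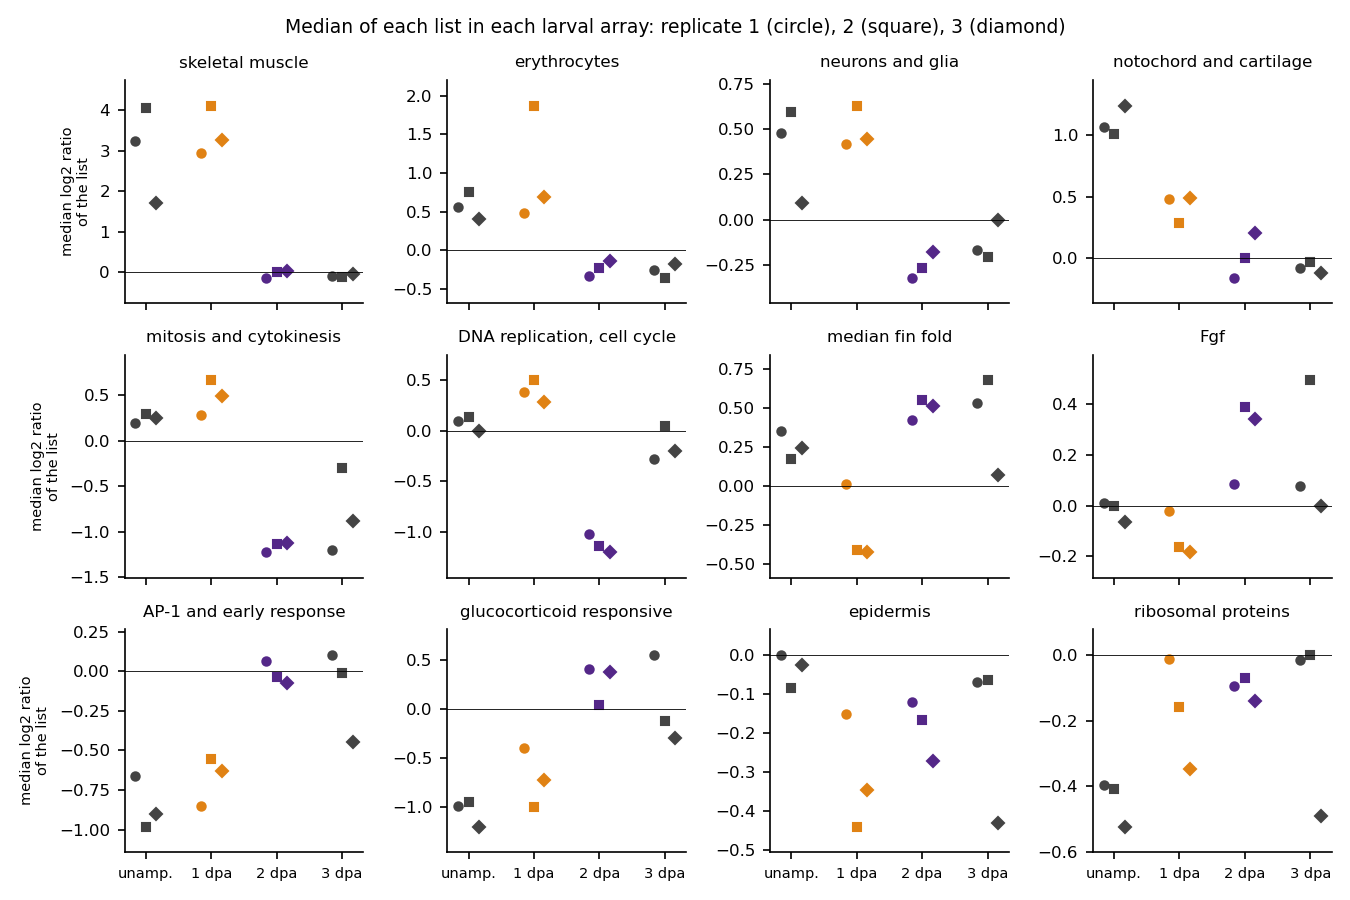
Points are the median log2 ratio of a list in each larval array (circle, square and diamond for replicates 1, 2 and 3), by group; each panel has its own scale. Between 1 dpa (orange) and 2 dpa (violet) the muscle median goes from 2.95 to 4.1 down to -0.14 to 0.02, and the median fin fold list from -0.43 to 0.01 up to 0.42 to 0.55.

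Of 26 measured genes of the median fin fold 12 rose, 0 fell and 14 were not called (median 0.83), where 4.17% of all genes rose. Tested against 1.5-fold, 6 were called higher. The list's median was -0.43 to 0.01 in the 1 dpa arrays, 0.42 to 0.55 at 2 dpa, and 0.18 to 0.35 in unamputated fin. These genes include homeodomain factors of the dlx, msx and hox families, secreted signals and matrix proteins of the fold.

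dlx6a, a homeodomain factor of fin and limb margins, had 0.32, -0.55 and -0.44 at 1 dpa and 1.82, 1.72 and 1.70 at 2 dpa. The groups did not overlap, and replicate 1 was the highest at 1 dpa. It rose by 1.97 (SE 0.31, adjusted p = 0.0011). hoxd13a, which acts in the distal part of fins, was at 1.1, 0.58 and 0.07 at 1 dpa and at 2.75, 2.52 and 2.13 at 2 dpa, and rose by 1.88 (SE 0.33, adjusted p = 0.0021). It was also 1.24 higher at 2 dpa than in unamputated fin. fbln1, a matrix glycoprotein, rose by 2.00 (SE 0.26), while its other probe set changed by -0.06 and was not called.

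msx1b, a homeodomain factor found in blastema cells, was at -0.51, -0.82 and -0.74 at 1 dpa and at 0.70, 0.87 and 0.57 at 2 dpa. The groups did not overlap, and it rose by 1.41 (SE 0.19, adjusted p = 0.00043). Unamputated fin had 0.67, 0.20 and 0.80, so the 2 dpa level lay beside the level before amputation. Its relative msx2b rose by 1.86 (SE 0.49). Its call was lost without replicate 3 at 1 dpa, or replicate 1 or 2 at 2 dpa, with adjusted p up to 0.075. Neither of the actinodin genes, which encode proteins of the fin's actinotrichia fibres, was called: and1 changed by 0.33 (SE 0.10) and and2 by 0.49 (SE 0.12).

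Of 21 Fgf genes 7 rose, 0 fell and 14 were not called (median 0.49), where 4.17% of all genes rose. Tested against 1.5-fold, 4 were called higher. The ligand gene fgf8a had 1.56, -0.14 and 0.00 at 1 dpa and 2.88, 2.79 and 2.77 at 2 dpa. Replicate 1 lay well above the other 1 dpa arrays, yet below all at 2 dpa. fgf8a rose by 2.34 (SE 0.42, adjusted p = 0.0023), and by 2.88 (SE 0.30) without that replicate. Before amputation it was at 2.36, 2.17 and 2.43, and the fall from there to 1 dpa was called (-1.84, adjusted p = 0.015).

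fgf24, another ligand, was at 0.33, -0.73 and -0.59 at 1 dpa and at 2.48, 2.29 and 1.54 at 2 dpa, with no overlap, and rose by 2.43 (SE 0.42, adjusted p = 0.0018). spry4, a feedback inhibitor that Fgf signalling induces, rose by 1.74 (SE 0.32). The receptor fgfr1a changed by 0.46 (SE 0.12), which was under the fold required.

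In the list of Bmp, activin and Tgfb genes 7 of 39 rose and 2 fell (median 0.10), against 4.17% and 5.98% of all genes. Those that rose included the Bmp ligand genes bmp4 and bmp2b. bmp4 was at 0.63, 0.00 and -0.13 at 1 dpa and at 2.06, 1.87 and 1.89 at 2 dpa, and rose by 1.78 (SE 0.29, adjusted p = 0.0013). Its arrays did not overlap, and in unamputated fin it was at 1.95, 1.76 and 1.49. bmp2b rose by 1.88 (SE 0.37) and the activin subunit inhbaa, required for adult fin regeneration, by 1.70 (SE 0.21). The activin antagonist fsta fell by 1.58 (SE 0.13), with another probe set at -0.09 and not called, and id4, a dominant-negative helix-loop-helix factor, fell by 1.59 (SE 0.20).

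Of 30 Wnt genes 4 rose and 3 fell (median 0.17), against 4.17% and 5.98% of all genes. The ligand wnt5b, which restrains outgrowth in adult fins, was at 0.80, 0.73 and -0.01 at 1 dpa and at 2.54, 2.1 and 2.03 at 2 dpa. Its groups did not overlap, it rose by 1.71 (SE 0.34, adjusted p = 0.004), and unamputated fin had 2.35, 1.98 and 1.42. The Wnt inhibitor dkk1b rose by 1.41 (SE 0.32) and the receptor fzd9b by 1.37 (SE 0.23). The ligand wnt4b was at 2.00, 2.67 and 2.1 at 1 dpa and at -0.78, -0.83 and -0.74 at 2 dpa, and fell by 3.04 (SE 0.17, adjusted p = 7.3e-07). The Wnt-binding inhibitor wif1 fell by 1.76 (SE 0.10). sfrp1a fell by 1.02 (SE 0.28), a call lost without replicate 1 or 2 of either day, with adjusted p up to 0.095. The Wnt targets lef1 (-1.13, SE 0.43) and axin2 (0.51, SE 0.13) and the ligand wnt10a (0.05, SE 0.21) were not called.

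**Figure D4:**
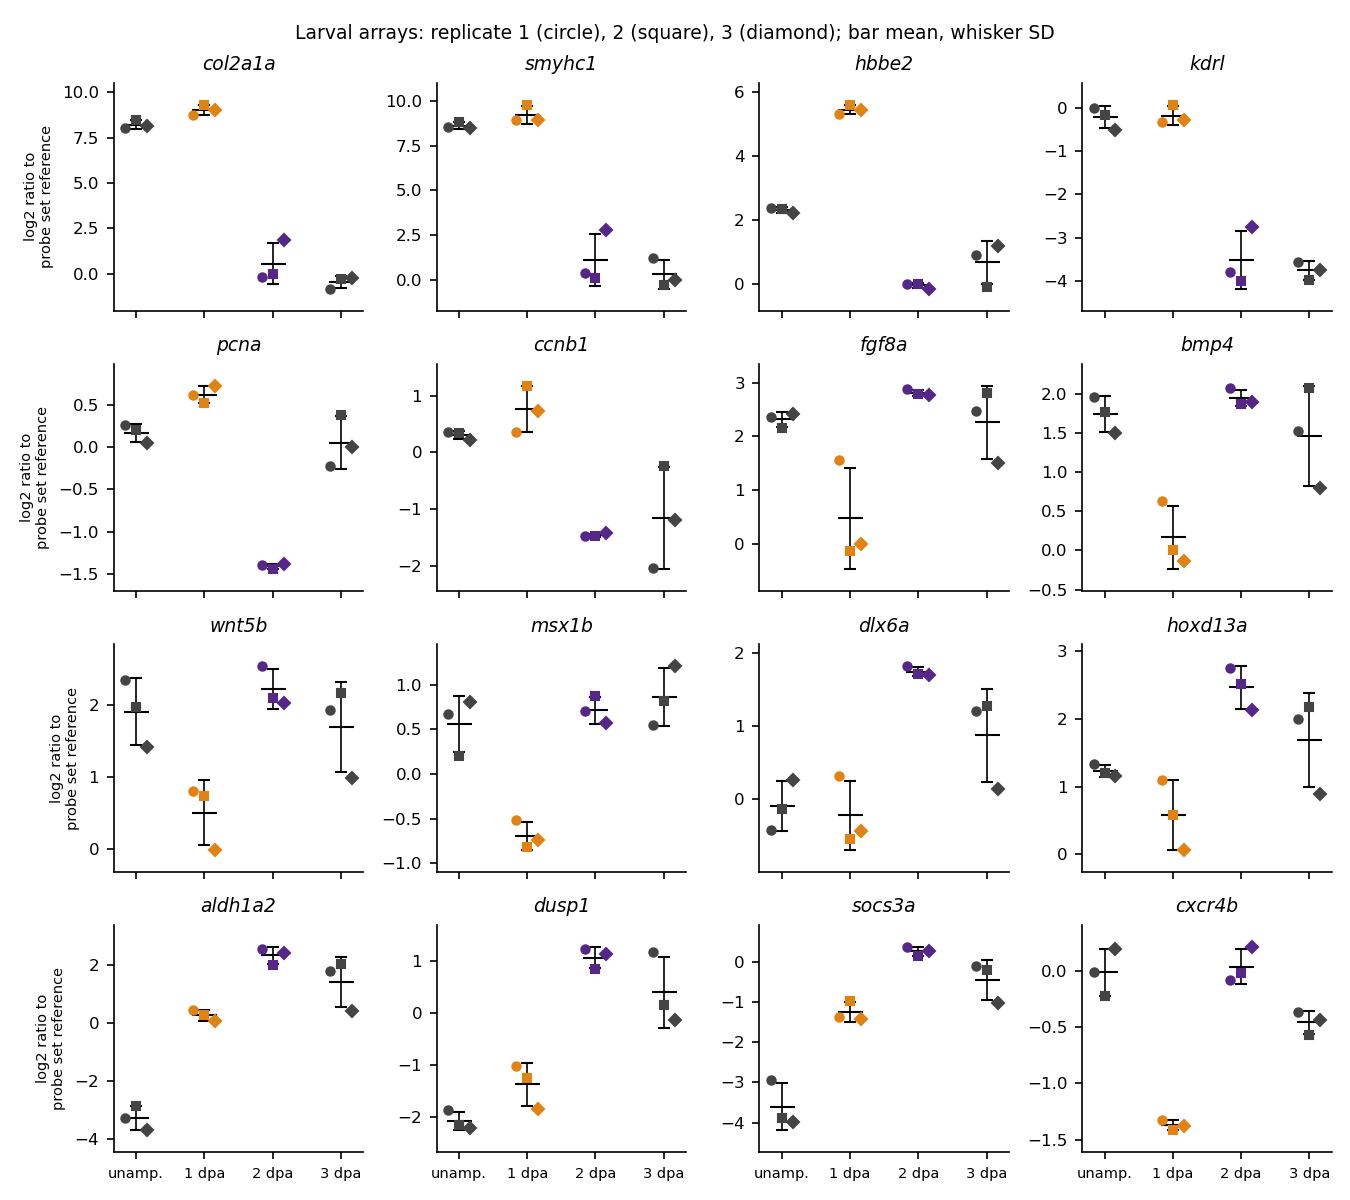
Log2 ratios of 16 genes in the 12 larval arrays, by group, with the mean (bar) and SD (whisker) of 3 arrays and a scale for each gene. fgf8a, bmp4, wnt5b, msx1b and cxcr4b are lowest at 1 dpa and stand at 2 dpa beside their unamputated level, while aldh1a2 and socs3a are higher at each day up to 2 dpa.

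No Hedgehog or Notch gene was called higher, where 4.17% of all genes rose and 5.98% fell. In the Hedgehog list 2 of 14 fell, shha and hhip. The ligand shha was at 4.35, 4.61 and 3.93 at 1 dpa and at -1.17, -1.01 and 0.00 at 2 dpa. Its groups did not overlap, and it fell by 5.02 (SE 0.36, adjusted p = 5.8e-06). hhip, which binds Hedgehog ligands, fell by 3.63 (SE 0.27). The notochord, where shha is made in the embryo, is the tissue whose collagen genes fell most here, and the part of that in the fall of shha was not tested. In the Notch list 3 of 24 fell: the ligands dlb by 1.88 (SE 0.39, another probe set at 0.00 and not called) and dla by 1.69 (SE 0.23), and the target gene hey1 by 1.72 (SE 0.17).

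Of 20 retinoic acid genes 1 rose and 3 fell (median 0.04), against 4.17% and 5.98% of all genes. aldh1a2, which makes retinoic acid, was at -3.27, -2.87 and -3.70 in unamputated fin, at 0.46, 0.29 and 0.07 at 1 dpa and at 2.58, 2.02 and 2.44 at 2 dpa. None of the 3 groups overlapped. It rose by 2.07 (SE 0.37, adjusted p = 0.0022) in this step and had been called higher at 1 dpa than before amputation (3.55). dhrs3a, which turns retinaldehyde back into retinol, fell by 1.56 (SE 0.28), and the binding protein crabp2a by 1.21 (SE 0.27). cyp26a1, which degrades retinoic acid, was at -1.99, 0.40 and 0.00 at 1 dpa and at -2.25, -2.33 and -2.35 at 2 dpa, so that replicate 1 at 1 dpa lay near the 2 dpa arrays. It fell by 1.78 (SE 0.53, adjusted p = 0.031) and kept the call only where that replicate was the one left out (-2.51, adjusted p = 0.00048). Leaving out any other array gave adjusted p up to 0.12. In a fit to the 6 arrays alone cyp26a1 was also not called. cyp26b1 was not called (0.05, SE 0.22).

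Of 33 AP-1 and early response genes 12 rose, 0 fell and 21 were not called (median 0.64). Of 17 glucocorticoid responsive genes 7 rose, 0 fell and 10 were not called (median 1.02). The lists share members, and klf9 is counted in both. Of all genes 4.17% rose. Tested against 1.5-fold, 1 gene of each list was called higher. For probe sets above the median mean, a setting that tests fewer genes, 6 and 1 were. Leaving out each array of the step in turn gave 8 to 10 early response genes and 4 to 6 glucocorticoid genes, with 4 without replicate 2 or replicate 3 at 1 dpa. The vehicle and the age of the larvae changed in the same step.

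dusp1, a phosphatase that switches off MAP kinases, was at -1.03, -1.26 and -1.85 at 1 dpa and at 1.23, 0.83 and 1.13 at 2 dpa. The groups did not overlap, and it rose by 2.44 (SE 0.30, adjusted p = 0.00025). The transcription factor gene fosab rose by 1.67 (SE 0.35), klf9 by 1.88 (SE 0.41) and gadd45ba, of the DNA damage and stress response, by 1.88 (SE 0.44). junba rose by 1.24 (SE 0.39, adjusted p = 0.04), but the call was lost with any 1 of the 6 arrays left out (adjusted p from 0.068 to 0.11).

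tat, the tyrosine aminotransferase induced by glucocorticoids in liver, was at 0.03, -4.22 and -4.29 at 1 dpa and at 0.00, 1.26 and 1.6 at 2 dpa. The groups overlapped, because replicate 1 at 1 dpa was as high as the lowest 2 dpa array. The change was 3.78 (SE 0.92, adjusted p = 0.012), the largest rise of any list. It was 5.21 (SE 0.36) without replicate 1 and was no longer called without replicate 2 or 3 at 1 dpa (adjusted p up to 0.054). In a fit to the 6 arrays alone tat was also not called. The chaperone gene fkbp5, which limits the glucocorticoid receptor, changed by 1.59 (SE 0.57) and was not called. cebpd, a transcription factor of the acute phase, rose by 1.57 (SE 0.37), and its other probe set changed by 0.96 and was not called.

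Of 27 genes of inflammation and cytokine signalling 6 rose and 1 fell (median 0.28), and 2 fell without replicate 1 at 1 dpa. Among 29 leukocyte genes 4 rose and 2 fell (median 0.15). Of all genes 4.17% rose and 5.98% fell. The chemokine receptor gene cxcr4b was at -1.32, -1.41 and -1.38 at 1 dpa and at -0.08, -0.02 and 0.21 at 2 dpa. The arrays within each day were close together, and it rose by 1.41 (SE 0.12, adjusted p = 2.4e-05). It had been at -0.01, -0.22 and 0.19 before amputation. Its paralogue cxcr4a rose by 1.62 (SE 0.26), ptgs2a, which makes prostaglandins, by 1.72 (SE 0.18), and socs3a, a feedback inhibitor of cytokine receptors, by 1.51 (SE 0.29). cxcl12b, which encodes a ligand of these receptors, was at 1.65, 3.63 and 3.03 at 1 dpa and at -2.21, -2.28 and -2.03 at 2 dpa, and fell by 4.94 (SE 0.37, adjusted p = 7.2e-06).

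Macrophage genes were less certain. The scavenger receptor marco fell by 1.11 (SE 0.33, adjusted p = 0.031) and the granulin gene grna by 1.40 (SE 0.36, adjusted p = 0.015). Without 1 of 4 arrays for marco (replicates 2 and 3 of either day) and 1 of 3 for grna (replicates 2 and 3 at 1 dpa, replicate 3 at 2 dpa) the call was lost, with adjusted p up to 0.12 and 0.061. Neither gene was called in a fit to the 6 arrays alone. Leaving out each array in turn gave 0 to 8 leukocyte genes lower, with 8 without replicate 1 at 1 dpa, 1 without replicate 2 at 2 dpa, and 0 without replicate 2 or 3 at 1 dpa or replicate 3 at 2 dpa. Of the transcription factors of myeloid cells, cebpa rose by 1.73 (SE 0.25), while cebpb (1.54, SE 0.50, adjusted p = 0.047) lost its call without any 1 of the 6 arrays (adjusted p from 0.05 to 0.15).

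In the list of blastema and fin regeneration genes 7 of 30 rose and 3 fell (median 0.52), against 4.17% and 5.98% of all genes. The intermediate filament gene vim, of mesenchymal and glial cells, was at 1.79, 2.00 and 1.80 at 1 dpa and at -3.44, -3.38 and -2.51 at 2 dpa. Its groups did not overlap, and it fell by 4.97 (SE 0.47, adjusted p = 4.1e-05). The chromatin protein gene hmga1a fell by 1.39 (SE 0.20), and fn1a (fibronectin) by 1.32 (SE 0.14), with other probe sets of fn1a at 0.04 and 0.25 and not called. The growth factor mdka (0.50, SE 0.12), fn1b (-0.66, SE 0.24) and the collagenases and gelatinases mmp9 (1.48, SE 0.50) and mmp13a (1.11, SE 0.64) were not called. Of 14 genes of the insulin-like growth factor list, igf2a fell by 1.59 (SE 0.21) and igf2b changed by -0.35 (SE 0.34). The binding protein igfbp3 rose by 1.17 (SE 0.32), a call lost without replicate 2 or 3 at 1 dpa or replicate 1 or 2 at 2 dpa (adjusted p up to 0.084).

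Of 31 extracellular matrix genes 3 rose and 4 fell (median 0.37), against 4.17% and 5.98% of all genes. Without replicate 1 at 1 dpa 5 of the list rose. The collagen crosslinking enzyme gene loxa was at 1.41, -1.14 and -1.02 at 1 dpa and at 1.77, 2.22 and 1.97 at 2 dpa. The groups did not overlap, but replicate 1 lay close to the 2 dpa arrays. It rose by 2.24 (SE 0.52, adjusted p = 0.0097), and by 3.07 (SE 0.15) without that replicate. It was not called in a fit to the 6 arrays alone. Its relative loxl2b rose by 1.81 (SE 0.31). The collagens col1a2 and col6a3 fell by 1.62 (SE 0.11) and 1.39 (SE 0.25), and thbs1b, a thrombospondin, by 2.00 (SE 0.25). Of 22 matrix proteases and inhibitors 1 rose, mmp14a (1.17, SE 0.20), whose other probe set was not called (0.84). The call of mmp14a was lost without replicate 3 at 1 dpa, where the change was 0.998 and 0 genes of the list rose. Without replicate 1 at 1 dpa 3 of the list rose and 3 fell, and without replicate 2 at 1 dpa or replicate 3 at 2 dpa 2 rose.

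Of 52 epidermis genes 6 fell and 0 rose (median 0.20), where 5.98% of all genes fell and 4.17% rose. Without replicate 1 at 1 dpa 2 of the list rose, and 1 without replicate 3 at 1 dpa or replicate 1 or 3 at 2 dpa. The transglutaminase gene tgm1l4 was at 1.98, 0.19 and 0.24 at 1 dpa and at -2.06, -1.95 and -2.04 at 2 dpa, and fell by 2.82 (SE 0.47, adjusted p = 0.0016). The keratins krt91 and krt94 fell by 2.77 (SE 0.45) and 2.50 (SE 0.24). Of 42 Hox genes 2 rose and 4 fell (median -0.01), to be read beside the same shares of all genes. Besides hoxd13a, hoxc9a rose by 1.21 (SE 0.26), under 2-fold without replicate 3 at 1 dpa (0.95). hoxb3a and hoxa2b, of the front part of the body axis, fell by 2.16 (SE 0.19) and 1.17 (SE 0.20), the latter under 2-fold without replicate 1 at 1 dpa (-0.99). hoxb8a fell by 3.10 (SE 0.24), whereas its other probe sets changed by -0.04 and -0.43 and were not called.

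Outside these lists, zgc:123295, for which no role is given here, was at -1.14, -0.64 and -0.50 at 1 dpa and at 2.55, 2.35 and 2.66 at 2 dpa, and rose by 3.28 (SE 0.44, adjusted p = 0.00042), with a further probe set at 2.99 that was also called. mb, the oxygen-binding myoglobin, was at 0.17, -2.03 and -2.16 at 1 dpa and at 1.70, 1.56 and 1.99 at 2 dpa. Replicate 1 was again the highest at 1 dpa; mb rose by 3.09 (SE 0.57), and by 3.84 (SE 0.39) without it. The secreted factor gene ecrg4a rose by 2.99 (SE 0.50), si:ch73-380l3.2 by 2.87 (SE 0.40), grik1a, of a glutamate receptor, by 2.81 (SE 0.56), and ca10a, related to carbonic anhydrases, by 2.61 (SE 0.41). rmdn1 (2.78, SE 0.71) lost its call without replicate 2 or 3 at 1 dpa or replicate 1 at 2 dpa, and stau2 (2.27, SE 0.69) without any array other than replicate 1 at 1 dpa, with adjusted p up to 0.066 and 0.12. Among the largest falls outside the lists, aqp8a.1, a water channel, fell by 6.48 (SE 0.49). hsd17b8, of fatty acid synthesis, fell by 7.39 (SE 0.24), but its other probe set changed by -0.35 and was not called.

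Lists of general cell functions had few calls, where 4.17% of all genes rose and 5.98% fell. Of 72 ribosomal protein genes and 47 proteasome genes 0 were called, with medians of 0.07 and -0.10 and ranges of -0.24 to 0.57 and -0.57 to 0.84. At an unadjusted p under 0.05 in limma there were 1 ribosomal protein gene and 10 proteasome genes, and 7 of the latter had an adjusted p under 0.05 with a change under 2-fold. Without replicate 1 at 2 dpa 1 proteasome gene was called higher. Of 74 genes of mitochondrial respiration 1 fell, ndufa4b (-2.81, SE 0.31), against 3 without replicate 1 and 2 without replicate 3 at 1 dpa. Of 43 chaperone genes 2 fell, hsp90aa1.1 (-2.22, SE 0.43) and hspb8 (-1.18, SE 0.27, lost without replicate 2 at 1 dpa, at -0.94), both of which muscle cells also use. Of 11 genes of sterol synthesis 1 fell, cyp51 (-1.20, SE 0.31), with 1 other probe set also called lower (-1.32) and 2 at -0.04 and 0.02 not called, and its call was lost without replicate 1 at 1 dpa or replicate 1 or 3 at 2 dpa.

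The other lists had 1 to 4 calls each, or 0 in the case of the 5 genes of the hatching gland, of which 3 had an unadjusted p under 0.05 in limma and 1 was called lower without replicate 1 at 1 dpa. The shares of all genes that rose and fell were 4.17% and 5.98%. Of 13 pigment cell genes dct, an enzyme of melanin synthesis, rose by 1.17 (SE 0.28). Of 26 circadian clock genes cry1b rose by 1.04 (SE 0.29) and lost its call without replicate 2 or 3 of either day (adjusted p up to 0.096). Of 8 aryl hydrocarbon receptor targets, of which cyp1a is the best known and was not called (0.25, SE 0.86), sox9b rose by 1.33 (SE 0.37). That call was lost without any array other than replicate 1 at 1 dpa (adjusted p up to 0.097), and a different probe set changed by 0.00. The other riser of the notochord and cartilage list, the matrix link protein gene hapln1a, rose by 2.03 (SE 0.21), with 2 of its 5 other probe sets called and 3 not (-0.03, 0.91 and 0.94).

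Of 19 complement and coagulation genes 2 rose and 2 fell, against 4.17% and 5.98% of all genes. f5 (1.91, SE 0.57) lost its call without any 1 of the 6 arrays (adjusted p from 0.054 to 0.093), and cfd (-2.26, SE 0.62) without replicate 1 or 2 at 1 dpa or replicate 1 at 2 dpa. tfpia rose by 1.19 (SE 0.28) and f13a1b fell by 1.78 (SE 0.39), each with 1 other probe set not called (0.98 and -0.07). Of 31 genes of liver, yolk and gut apoc1, an apolipoprotein, rose by 1.49 (SE 0.20), and tfa (transferrin) and fabp3 fell by 2.05 (SE 0.43) and 1.69 (SE 0.23). Of 13 ionocyte genes the sodium pump subunit atp1a1a.2 fell by 1.55 (SE 0.27). Of 10 lateral line and otic genes pvalb8 and eya1 fell by 1.3 (SE 0.27) and 1.09 (SE 0.19), eya1 under 2-fold without replicate 1 or 2 at 2 dpa (-0.95 at the smallest), and cxcr4b, given above, rose. Of 14 bone and scale genes the only riser was msx2b, given above, against 3 risers and 1 fall without replicate 1 at 1 dpa and 0 risers without replicate 3 at 1 dpa or replicate 2 at 2 dpa.

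The larval step was set against the adult step from 1 to 3 dpa, which uses none of the same arrays. Adult fins were from males injected with vehicle, 10 fish to a replicate, on a single-cycle kit, and their interval was a day longer. Of the 367 genes that rose in larvae 38 also rose in adults, 10.4% of the larval and 18.5% of the 205 adult rises (adult background 2.33%). Of the 526 that fell in larvae 6 also fell in adults, 1.14% of the larval and 14.3% of the 42 adult falls (background 0.478%), while 31 of them (5.89%) rose in adults. Of the larval rises 3 fell in adults (0.817%). The difference between the steps was called for 1441 probe sets (9.3%), 442 with the higher change in larvae (2.85%) and 999 with the lower (6.44%). By gene it was called for 911 (10.4%), of which 299 (3.4%) had the higher change in larvae and 612 (6.96%) the lower.

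Genes that rose in both included ecrg4a (4.21 in adults), loxa (2.46), loxl2b (1.79), dlx6a (2.06), msx1b (1.38) and fzd9b (2.63, a larger change than in larvae, with a called difference of -1.26). Also among the 38 were dlx1a, dlx2a, dlx2b, dlx4a and dlx5a, named after their values were seen, which rose by 1.13 to 1.37 in larvae and by 1.32 to 2.64 in adults. cxcl12b and fn1a were among the 6 that fell in both.

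Among the largest differences were genes of notochord and muscle. col2a1a changed by 0.15 in adults, a difference of -8.64 (adjusted p = 3.2e-10), and smyhc1 by 0.18, a difference of -8.27. Adult means of col2a1a were -0.77 at 1 dpa and -0.62 at 3 dpa, against 9.03 and 0.55 in larvae at 1 and 2 dpa. Those of smyhc1 were -0.62 and -0.435, against 9.19 and 1.1. Both genes were thus low on both adult days, and their differences restate the larval fall. shha rose by 2.19 in adults and fell in larvae, with a difference of -7.22 (SE 0.53, adjusted p = 1.3e-08), and vim rose by 1.75, with a difference of -6.72. The cell cycle genes pcna and mcm4 were not called in adults (-0.55 and -0.73), and their differences were called (-1.49 and -1.25). The actinodins rose by 6.33 (and1) and 7.81 (and2) in adults, and their differences of -6.0 and -7.32 were called. Among genes whose change was higher in larvae, fgf8a changed by 0.26 in adults (difference 2.08, adjusted p = 0.006). Adult means of fgf8a were -3.31 at 1 dpa and -3.06 at 3 dpa, against 0.47 and 2.81 in larvae at 1 and 2 dpa. It was thus low on both adult days, and its difference restates the larval rise. Adult changes were -1.23 for inhbaa (difference 2.93), 0.21 for aldh1a2 (1.86), -0.69 for cxcr4a (2.30) and 0.12 for hoxd13a (1.77). For bmp4 (1.26 in adults, difference 0.52), wnt5b (0.28, difference 1.43) and dusp1 (0.31, difference 2.13) the difference was not called.

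**Figure D5:**
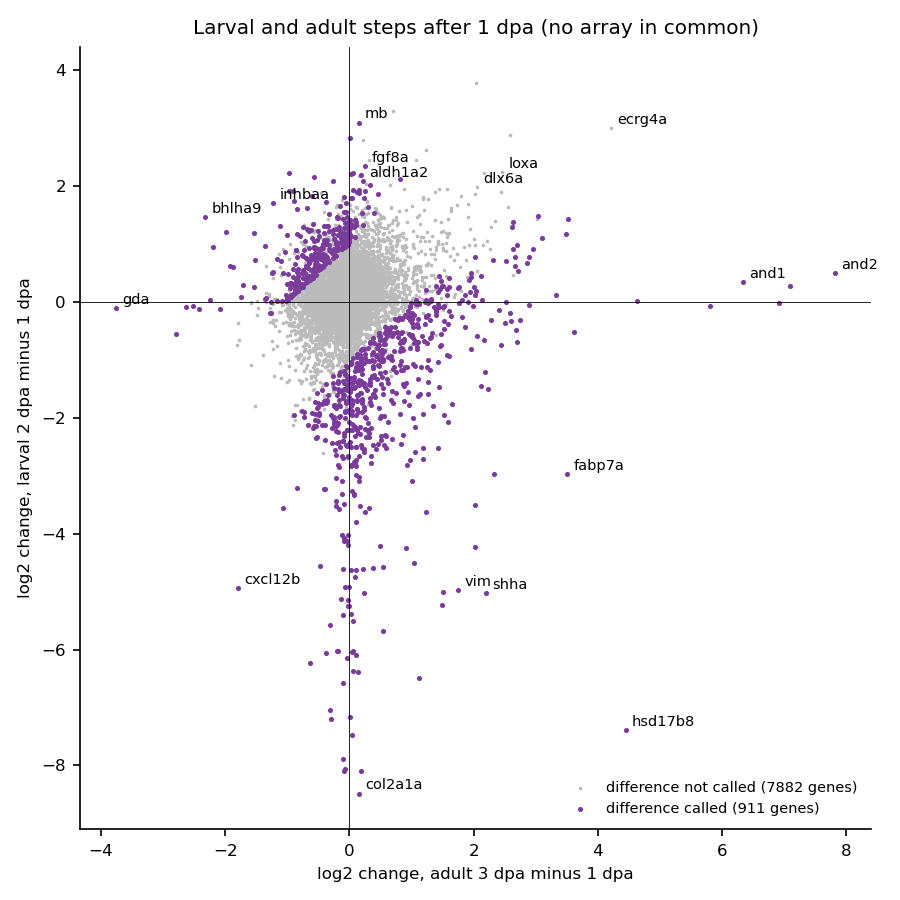
Each point is a gene, with its log2 change from 1 to 3 dpa in adults on the x axis and from 1 to 2 dpa in larvae on the y axis; violet marks the 911 genes whose difference was called. Genes such as col2a1a, of the notochord and cartilage list, lie far down near an adult change of 0. The actinodin genes and1 and and2 lie far right near a larval change of 0, and ecrg4a rises on both axes.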

How the data were processed

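GCRMA, with no version given, was the authors' tool per the submitters' processing notes. What they deposited is a linear ratio for every probe set against a reference of its own, which is not given in the sources used here. For 11137 of 15502 probe sets that are not controls, exactly 1 of the 24 arrays was at 1 (within 1e-06). Values were log2 transformed. After 115 control probe sets of 15617 were set aside, 15502 were tested. Of these, 10795 matched 1 gene symbol in the platform annotation, 135 several and 4572 none, giving 8793 genes; 1539 genes had several probe sets and were read from the one with the highest SD over the 12 adult arrays. The 12 larval arrays were fitted in limma 3.58.1 (R 4.3.3) with group as the only term, and 2 dpa was contrasted with 1 dpa. The larval minus adult difference was fitted to all 24 arrays. P-values were adjusted over all probe sets. The code was tested on simulated data.

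Named genes were the 12 called rises and 12 called falls of largest size without overlap of arrays, up to 3 called rises and falls of each of 38 lists, a small set named whatever its values, and the 6 largest larval minus adult differences in each direction. The members and lists were chosen with earlier results of these data known. Deviations from the group means of same-numbered arrays correlated at -0.01, -0.04 and 0.07, so numbers were not taken to pair arrays. The means of 18 spiked control probe sets lay between -0.10 and 0.14 on day 1 and between -0.28 and 0.11 on day 2. Alternatives changed the arrays in the fit, the normalization, the treatment of low values, the variance model, the threshold and the probe set of a gene. With arrays, precision is limited by their number. No sequences were used here.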

Additional observations from a re-analysis of the deposited data

Results flagged for a closer look

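The change from 1 to 2 dpa in larvae differed from the change from 1 to 3 dpa in adults for 1441 probe sets, by a limma interaction term over all 24 arrays. The 6 named genes with the lowest larval minus adult difference on the log2 scale were hsd17b8 (-11.84), col2a1a (-8.64), smyhc1 (-8.27), col9a2 (-8.0), col9a1b (-7.98) and atp2a1 (-7.8). hsd17b8 fell in larvae and rose in adults (4.45), and its other probe set was not called in larvae. The probe set read for hsd17b8 was the more variable of them over the adult arrays, a choice that can favour an adult change. The other 5 are notochord or muscle genes whose adult change was not called, between -0.10 and 0.18. Their adult means at 1 and 3 dpa were low, between -0.87 and -0.435, against 8.45 to 9.19 in larvae at 1 dpa. Their differences thus restate the larval fall.

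The 6 with the highest difference were bhlha9 (3.78), gda (3.64), spint1b (3.18), jam2a (3.18), grna.1 (3.14) and mb (2.94). Of these, bhlha9 (-2.33), gda (-3.75) and grna.1 (-2.20) fell in adults, while in larvae bhlha9 rose by 1.46 (SE 0.39) and gda (-0.11), grna.1 (0.95) and spint1b (1.2) were not called. The larval call of bhlha9 was lost without replicate 2 or 3 of either day, and in a fit to the 6 arrays alone. jam2a, a cell adhesion gene, rose by 2.21 (SE 0.54) in larvae, with adjusted p = 0.053 without replicate 3 at 1 dpa. mb rose in larvae and was not called in adults (0.15).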

How the results depend on the processing

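Of the counts over all probe sets, 1385 called with 558 higher and 827 lower, those in the fit to 6, 9 or 24 arrays, with centred or quantile-normalized arrays, a floor, a pseudocount or another variance model lay within 1.5 times. They moved to 787 (300 higher, 487 lower) for probe sets above the median mean, to 3629 (1961 and 1668) with no minimum fold change and to 696 (174 and 522) when tested against 1.5-fold. Leaving out 1 array of the step gave 1236 to 1628 called, 439 to 692 higher and 754 to 936 lower. The share of higher calls was 40.3%, and moved by more than 10 points with no minimum fold (54.0%) and against 1.5-fold (25%). The 1441 larval minus adult differences (442 higher, 999 lower) became 2011 (808 and 1203) with no minimum fold, and 1255 to 1590 (346 to 526 and 886 to 1064) without 1 array.

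With the replicate number as a block, 1410 were called (573 higher, 837 lower); the numbers do not pair the arrays.

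Of 122 called genes named in the step 77 kept their call in each setting in which they were tested, 45 lost it in at least 1 and 0 reversed; 36 of the 77 were not among the probe sets above the median mean. Leaving out probe sets under the median mean, which tests fewer genes, lowered the counts of replication (28 to 10 lower), mitosis (27 to 4), early response (12 to 6) and glucocorticoid genes (7 to 1). That mean is one of log2 ratios, so the setting does not rank genes by abundance. All 66 called named genes still tested in it kept their call. Against 1.5-fold, a stricter threshold, early response genes went from 12 to 1, glucocorticoid genes from 7 to 1, median fin fold genes from 12 to 6, Fgf genes from 7 to 4, blastema genes from 7 to 3 and Wnt genes from 4 to 0 higher. The fit to all 24 arrays called 4 glucocorticoid genes; the cause was not tested. Without replicate 1 at 1 dpa, 10 Bmp, activin and Tgfb genes rose in place of 7, and 3 proteases in place of 1.

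Vehicle, age, day after amputation and the wording of the array titles change together. The reference of the ratios is unknown, and 3 pools of fins a group limit the precision.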
